A study of Mus musculus with 4 samples.

Results

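The endothelial cells of the ligated mouse carotid artery came from a vessel in which flow had been stopped. Where in its wall they lay was not recorded, and they made up a small part of the cells profiled. They were selected on their own expression, as every cell of the 2 carotid ligation libraries with at least 1 unique molecular identifier (UMI, a count of 1 captured transcript) for at least 4 of 7 markers. The markers are Pecam1 and Cdh5, 2 adhesion molecules of endothelial junctions, Cldn5, a tight junction claudin, Egfl7, a secreted endothelial factor, Vwf, the platelet-tethering glycoprotein, Ptprb, a receptor phosphatase, and Ctla2a, a cysteine protease inhibitor. Of 10359 cells in the 2 libraries, 131 met the rule, and the whole series holds 12790 cells in 4 libraries. They were 63 of 4967 cells of the control library and 68 of 5392 cells of the Trf2T188A library.

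The control library came from wild-type littermates and the other from SM22α-TRF2T188A mice, which carry a point mutant of TRF2, a protein of the telomere-protecting shelterin complex. The transgene is driven by a minimal SM22α promoter active in arterial smooth muscle cells, so the endothelial cells described here are not the cells it was built for. Both groups were C57Bl/6 males (C57Bl6/J in the study's methods), 4 to 5 months old, whose left common carotid artery had been tied and whose tissue was taken 28 days later, after the outer coat and the stretches without remodelling were dissected away. Cells were freed with enzymes and run on a Chromium system with the Single Cell 3' v3 kit, which counts the 3' ends of transcripts. There was 1 library per genotype and the number of mice in each is not given in the sources used here. Genotype and library therefore cannot be told apart, no test between genotypes was possible, and all values are descriptions of these 2 libraries. The plaque libraries of the series, used for a few values, came from Myh11-CreERt2/Confetti/ApoE-/- mice fed a high fat diet. Those mice lacked ApoE and carried the Confetti lineage reporter. The library without the Sm22a-Trf2T188A transgene is called ApoE below, and the library with it Trf2T188A ApoE.

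Endothelial cells form the barrier between blood and vessel wall. They hold blood fluid, set smooth muscle tone through nitric oxide, prostanoids and endothelin, and display adhesion molecules and chemokines that recruit leukocytes when the wall is inflamed. Arterial, venous, capillary and lymphatic endothelium are known to use different regulators, among them Notch ligands and Sox17 in arteries, Nr2f2 in veins and Prox1 in lymphatics. Loss of laminar flow and cytokine exposure are known to move endothelium towards an activated, adhesive state.

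The 7 rule markers separated the members sharply from the rest of the vessel. All 7 were detected in 37 of 63 control members and in 40 of 68 Trf2T188A members. Just inside the rule, 2 Trf2T188A cells held 4 markers, with summed marker levels of 30.3 and 12.1 UMIs per 10000 UMIs of the cell. Just outside it, 3 Trf2T188A cells held 3 markers, with summed levels of 1.25, 1.58 and 2.92. No control cell held 3 or 4 markers. Pecam1 (chr11:106654217-106750628, GRCm38, minus strand) was found in all members, with a mean of 15.4 UMIs per 10000 in control and 12.7 in Trf2T188A members, against 0.12 and 0.14 in the other cells. Cdh5 (chr8:104101625-104144511, plus strand) had means of 5.51 and 6.01 in members. Egfl7 had means of 7.83 and 5.82, and Vwf of 5.02 and 3.76. These values are the base of the rule and are given only to describe the cells.

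The share of members was the same in both libraries to within counting error. It was 1.27% of control cells (exact Clopper-Pearson 95% interval 0.976 to 1.62) and 1.26% of Trf2T188A cells (0.981 to 1.60). Intervals here and below cover counting error only, not differences between mice, dissections or digestions. Those of expression levels also leave out the spread between cells. A share of cells in a digest depends on how well each cell type was released. The members held a median of 10424 UMIs in control (3017 to 39929) and 14130.5 in Trf2T188A (4083 to 39511), against medians of 8619.5 and 11142.5 in all other cells. The Trf2T188A library was thus the deeper one, which raises the number of cells with a UMI. For some genes the share after thinning each cell to 5000 UMIs (58 control and 67 Trf2T188A members deep enough) is therefore given beside such numbers. Numbers of cells given without that share are not corrected for depth. The 2 libraries shared 10 cell barcodes, none of them a member's.

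Most members carried little RNA of other cell types. The summed level of 7 smooth muscle contractile and cytoskeletal markers (Myh11, Acta2, Tagln, Cnn1, Smtn, Lmod1 and Myl9) had a median of 9.30 UMIs per 10000 in control members and 5.11 in Trf2T188A members, against 376 and 381 in the other cells. It exceeded 100 in 6 control and 11 Trf2T188A members, which also held more UMIs (medians of 15250 and 20589, against 9982 and 13074 in the remaining members) and less of the rule markers (35.8 and 18.4, against 65.7 and 52.3). These 17 cells are called smooth-muscle-high below, and values without them were computed after the data were seen. Of 7 immune markers (Ptprc, Cd52, Laptm5, Coro1a, Tyrobp, Fcer1g and Lcp1), 53 of 63 control and 63 of 68 Trf2T188A members had none, and their summed level ranged from 0 to 3.31 in control members. A single Trf2T188A member held 4 or more of them, and the highest sum in that library was 26.4. The lymphatic, platelet and erythroid, and nerve sheath lists summed to means of 0.19, 0.10 and 0.06 in control members, and to 0.19, 0.08 and 0.02 in Trf2T188A members. The fibroblast list, which includes Cd34 and Lum, summed to means of 3.10 in control and 5.58 in Trf2T188A members (medians 1.87 and 4.18). In other cells its means were 6.23 and 7.41 (medians 1.25 and 1.13).

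**Figure D1:**
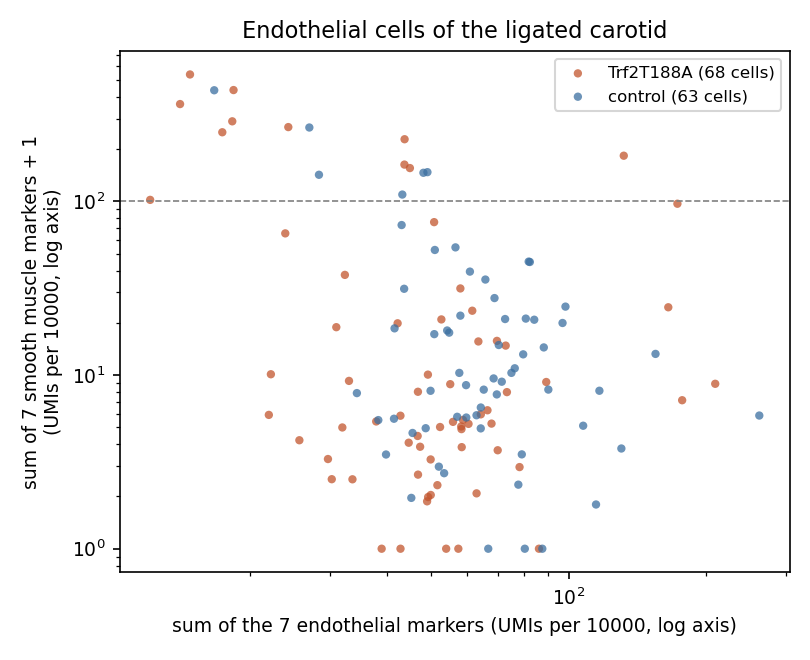
Each point is 1 of the 131 endothelial cells, with the sum of the 7 endothelial markers on the x axis and the sum of 7 smooth muscle markers plus 1 on the y axis, both in UMIs per 10000 on log axes (blue, control; orange, Trf2T188A). Above the dashed line at a smooth muscle sum of 100 lie 6 control and 11 Trf2T188A cells.

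Endothelial genes that the rule did not name went with it. All 28 genes of an endothelial identity list passed the filter used throughout (a UMI in at least 10% of the members of either library), and 19 of them were at least 2-fold higher in members than in other cells, which is a log2 ratio of 1 or more between means with 1 UMI per 10000 added to each. Of all 9588 genes that passed the filter, 2.11% reached that ratio and 2.12% were as far below it. Since the rule split these cells by expression, these counts carry no test. Lmo2, a transcriptional cofactor of endothelial and blood cells, had means of 7.99 in control and 11.8 in Trf2T188A members, against 0.01 in other cells of both libraries. Cd93, Clec14a and Ecscr, surface proteins of endothelium, had means of 7.05, 4.82 and 4.76 in control members and 5.36, 5.20 and 4.42 in Trf2T188A members. Emcn, an endothelial sialomucin, had 3.49 and 3.61. Erg and Fli1, ETS factors of endothelium, had 1.48 and 0.84 in control members, and Erg was also read in other cells, at 0.51.

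The members carried several genes of arterial endothelium, some of venous and capillary endothelium, and few transcripts of the lymphatic list. Gja4, a gap junction connexin, had means of 3.44 in control and 2.54 in Trf2T188A members. Sox17, an arterial transcription factor, had 2.27 and 1.57, Bmx, a kinase of arterial endothelium, 2.66 and 2.0, and the Notch ligand Dll4 1.32 and 1.28. Gkn3, a gene used as an arterial endothelial marker, had 1.32 in both. Of the 15 genes of the arterial list, 14 passed the filter and 5 were at least 2-fold higher than in other cells (2.11% of all genes were), while the matrix gene Fbln5 was lower, by 1.37 on the log2 scale.

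Of the 9 genes of the venous list, 6 passed the filter and 2 were at least 2-fold higher in members (2.11% of all genes were). These were Vcam1 and Selp, which are also induced adhesion molecules. The summed level of the venous list averaged 26.6 in control and 29.4 in Trf2T188A members, against 16.1 and 16.3 in other cells. That of the arterial list averaged 23.4 and 19.0 in members, against 16.6 and 18.3 in other cells, so it hardly differed in Trf2T188A. Nr2f2, the venous regulator, had means of 0.07 and 0.05 in members and 0.80 and 0.68 in other cells. Ackr1, a receptor of venules, was read in 3 control and 2 Trf2T188A members. Of the 12 genes of the capillary and vasa vasorum list, 6 passed the filter. None of these was at least 2-fold higher in members and 1, Lpl, was that much lower (2.12% of all genes were). Their summed level averaged 5.91 in control members (highest 86.2) and 2.41 in Trf2T188A members (highest 15.1), against 5.77 and 6.00 in other cells. Fabp4, a fatty acid carrier, was read in 16 and 21 members and Plvap, of endothelial diaphragms, in 32 and 25, while Cd36 and Aplnr had 0 UMIs in members of both libraries, where 3 counts of the 814559 UMIs in control and 1121429 in Trf2T188A members is the limit that a count of 0 allows. Prox1 was read in 2 control members and 1 Trf2T188A member, and Pdpn and Reln in none. Slc38a5, Car4, Ccl21a and Mmrn1 were not in the tables used here.

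**Figure D2:**
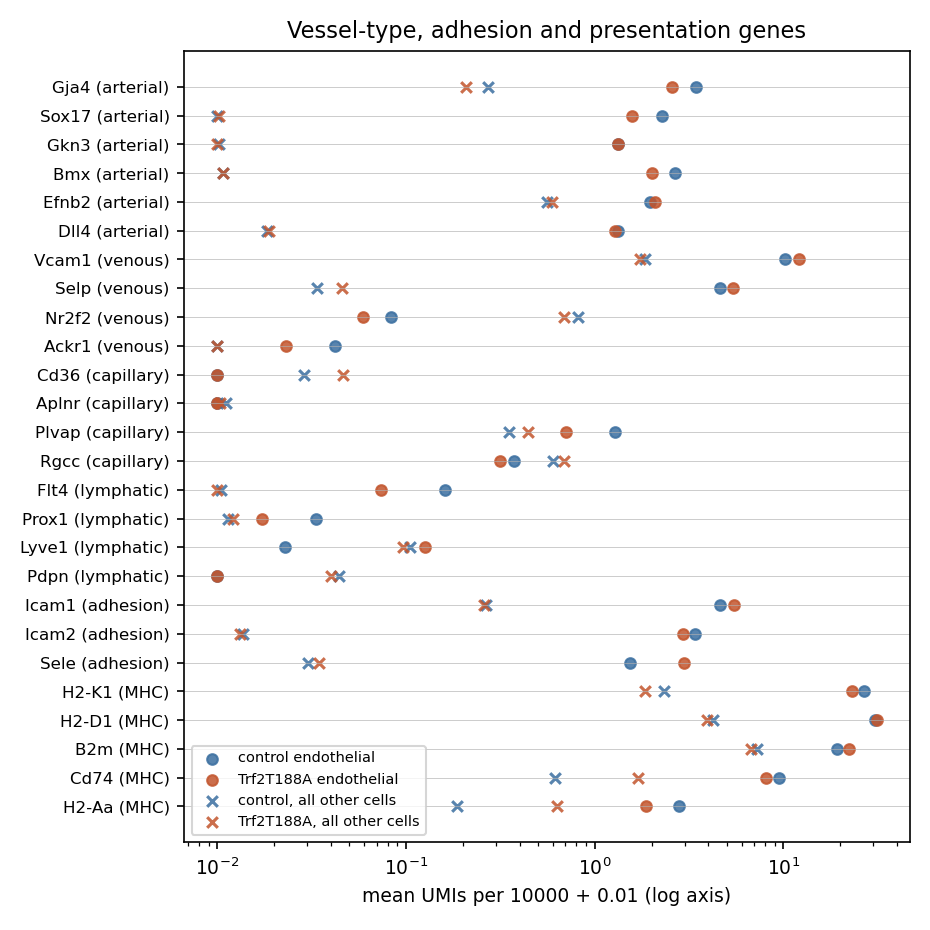
Mean UMIs per 10000 plus 0.01 on a log axis, for genes of arterial, venous, capillary and lymphatic endothelium, adhesion and antigen presentation, in endothelial cells (circles) and in all other cells (crosses) of the control (blue) and Trf2T188A (orange) libraries. Circles lie right of crosses for all arterial, adhesion and MHC genes shown, and Cd36, Aplnr and Pdpn sit at 0 in endothelial cells.

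Icam1, Icam2, Vcam1 and Selp, adhesion molecules for leukocytes, were read in most members. Vcam1, the ligand of leukocyte integrin VLA4, ranged from 0 to 42.0 UMIs per 10000 over control members (median 6.47) and from 0 to 77.1 over Trf2T188A members (median 8.69), and it was found in 57 of 63 and 66 of 68 of them. Its mean in other cells was 1.85 and 1.73. Icam1, the ligand of LFA1, had medians of 3.61 and 5.01 in members, and P-selectin (Selp), which tethers rolling leukocytes, had means of 4.62 and 5.41 against 0.02 and 0.04 in other cells. E-selectin (Sele), known to be induced on activated endothelium, was read in 24 control and 32 Trf2T188A members (24.1% and 38.8% after thinning), with means of 1.53 and 2.95. Of 10 adhesion genes that passed the filter, 6 were at least 2-fold higher in members (2.11% of all genes were). Alcam was lower by 1.16 on the log2 scale.

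Among chemokines, the neutrophil attractants Cxcl1 and Cxcl2 had means of 6.56 and 5.08 in control members and 8.28 and 10.7 in Trf2T188A members, against 1.02 and 0.76 and then 1.40 and 1.97 in other cells. Csf1, the macrophage growth factor, had 2.69 and 2.22, and the monocyte attractant Ccl2 had 0.18 and 0.21. Cxcl9, Ccl7 and Il33 had 0 UMIs in members. An immune comparison set was formed of 24 control and 59 Trf2T188A cells with at least 4 of the 7 immune markers and fewer than 4 rule markers. The sum of the chemokine and cytokine list averaged 21.5 and 25.1 in members, and 92.6 and 175 in that set. Nfkbia, the inhibitor that NF-kB induces as feedback, had means of 30.8 and 44.6 in members and 10.5 and 10.2 in other cells.

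Antigen presentation genes were higher in members than in all other cells, but were not particular to them. The class I sum averaged 106.5 in control and 98.6 in Trf2T188A members, against 68.0 and 78.9 in the immune comparison set. The class II sum averaged 18.8 and 14.7 in members, and 200 and 336 in that set. The class I heavy chains H2-K1 and H2-D1 were found in every member, with means of 26.6 and 30.7 in control and 23.2 and 31.2 in Trf2T188A members, against 2.32 and 4.22 and then 1.85 and 3.91 in other cells. B2m, their light chain, had 19.1 and 22.2 in members. Of the 17 class I presentation genes, which include the peptide transporter (Tap1, Tap2) and the immunoproteasome (Psmb8, Psmb9, Psmb10), 10 were at least 2-fold higher in members. Of all genes 2.11% were. H2-Q6 and H2-Q7 are near-identical copies whose reads may be shared, so their separate values are uncertain. The class II invariant chain Cd74 was read in 37 of 63 control and 44 of 68 Trf2T188A members, with medians of 1.64 and 1.32 and highest values of 75.4 and 174, and H2-Aa was read in 29 and 26.

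High class II values were also found in members with few immune transcripts. The control members reached a class II sum of 149 UMIs per 10000 while their immune marker sum did not exceed 3.31. In Trf2T188A the highest class II sum, 399, was in the member with 4 or more immune markers. Without that cell the mean class II sum of the Trf2T188A members was 9.01 in place of 14.7, against 18.8 in control members.

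Vessel tone and clotting genes were read in both libraries. Edn1 (chr13:42301476-42307990, plus strand), the vasoconstrictor endothelin-1, ranged from 0 to 79.4 over control members (median 13.4) and from 0 to 54.9 over Trf2T188A members (median 7.77), with means of 18.3 and 12.6 against 0.40 and 0.51 in other cells. Ece1, the enzyme that activates it, had 6.27 and 5.14. Nos3, the endothelial nitric oxide synthase, had only 0.52 and 0.66. Procr, the protein C receptor, had 4.21 and 3.97, and F8, clotting factor VIII, 1.44 and 1.15.

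Of the 16 genes of a list of endothelial ligands to smooth muscle and their receptors, 12 passed the filter. At least 2-fold higher in members were 4 of them (2.11% of all genes were): Edn1, Bmp4, Pdgfb and the cytokine receptor Il6st. Bmp4 and Bmp6, bone morphogenetic proteins, had means of 9.70 and 4.34 in control members and 8.19 and 3.52 in Trf2T188A members, with Bmp4 at 0.13 and 0.15 in other cells. Pdgfb, the platelet-derived growth factor that acts through Pdgfrb, had 1.61 and 1.94 in members and 0.07 and 0.09 in other cells, and Pdgfrb had 1.29 and 1.27 in other cells against 0.38 and 0.34 in members. Hbegf, an EGF receptor ligand, was not particular to members, with 5.95 and 8.46 against 8.72 and 7.35.

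By the rule for naming genes, the 10 outside the marker rule with the highest log2 ratio of members over other cells were Apoe, Lmo2, Cytl1, Edn1, Ly6e, Bmp4, H2-K1, Dcn, Tmem158 and Sfrp1. Apoe (chr7:19696109-19699188, minus strand), the lipid-carrying apolipoprotein, ranged from 0 to 404 UMIs per 10000 over control members (median 134) and from 0 to 374 over Trf2T188A members (median 103), and other cells had means of 10.0 and 9.78. In the immune comparison set of 24 and 59 cells Apoe had means of 168 and 194, so high Apoe was not particular to members. Those means came from a part of the immune cells. The sum of the lipid handling list, which includes Apoe, had medians of 37.3 and 81.5 in that set, against 158 and 136 in members. Cytl1, a small secreted cytokine-like protein, had means of 8.98 and 14.9 in members, 0.10 and 0.13 in other cells, and 0.17 and 0.01 in the immune set. Dcn, the proteoglycan decorin, which is best known from fibroblasts, had means of 16.5 and 28.0 in members against 1.91 and 2.29 in other cells. It was read in 52 and 58 members (86.2% and 80.6% after thinning). Sfrp1, a secreted Wnt antagonist, had 9.52 and 3.56 against 0.05 and 0.07. All 11 smooth muscle markers that passed the filter were at least 2-fold lower in members (2.12% of all genes were).

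The members were not uniform. Over the cells of each library, levels of Apoe went with those of Clu, the chaperone clusterin (Spearman rho 0.54 in 63 control and 0.74 in 68 Trf2T188A members), and Cytl1 (0.52 and 0.53), and against those of Pgf, placental growth factor (-0.49 and -0.47), and Nes, the intermediate filament nestin (-0.44 and -0.49). Cells of a library share its depth and all values of a cell sum to 10000, so these are descriptions. With every cell thinned to 5000 UMIs, the Pgf values were -0.43 and -0.36 and the Clu values 0.45 and 0.71.

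A second view of the same variation used Igfbp3, a binding protein of insulin-like growth factors, and was chosen after the values were seen. An Igfbp3 UMI was held by 20 control and 15 Trf2T188A members. In control, members with an Igfbp3 UMI had a mean Col4a1 level of 26.7 against 5.95 in members without, a Sparcl1 level of 19.1 against 2.36, a Pgf level of 5.20 against 0.41 and a Kit level of 4.96 against 0.62. Their Apoe level was 88.0 against 166, their Cytl1 level 0.97 against 12.7 and their Gkn3 level 0.20 against 1.85. The Trf2T188A members split the same way for these 7 genes, with Col4a1 at 15.3 against 5.66, Sparcl1 at 9.05 against 1.59, Pgf at 3.64 against 0.88, Kit at 4.09 against 1.25, Apoe at 68.7 against 130, Cytl1 at 3.64 against 18.0 and Gkn3 at 0.08 against 1.67. Apln and Esm1, genes of sprouting tip cells, were read at 2.31 and 2.79 in control members with an Igfbp3 UMI and at 0 and 0.02 in those without. In Trf2T188A the values were 0.65 and 0.48 with it, and 0.01 and 0.20 without. Other genes went opposite ways in the 2 libraries. Thbs1 was 10.6 with an Igfbp3 UMI and 17.3 without in control, but 13.2 and 7.74 in Trf2T188A. Gja4 was 2.39 and 3.93 in control but 3.01 and 2.41 in Trf2T188A, and Acta2 8.92 and 19.2 but 32.5 and 26.1. Rgcc and Ackr1 also changed sides. Smooth-muscle-high cells were 1 of the 20 and 2 of the 15. Members with the UMI were deeper, with medians of 12178 against 9801 UMIs in control and 18586 against 11682 in Trf2T188A, and the part of depth in this split was not tested.

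Between genotypes most genes of the members had log2 ratios near 0 on the scale used here. That scale adds 1 to each mean, so genes with low means can hardly pass the fold defined below. Statements that a gene was within the fold carry that limit. Terf2, the mouse gene of the protein that the transgene encodes in mutant form, had a mean of 0.25 UMIs per 10000 in control members (24 UMIs, exact Poisson 95% interval 15.4 to 35.7) and 0.22 in Trf2T188A members (31 UMIs, 21.1 to 44.0). Over all cells its mean was 0.18 in control, 0.16 in Trf2T188A, 0.19 in the ApoE plaque library and 0.18 in the Trf2T188A ApoE plaque library, and the transgene's own transcript was not analysed here. Of 9588 genes, 65 (0.678%) were past the fold upwards in Trf2T188A members, which is a log2 ratio of at least 0.5 between means with 1 UMI per 10000 added, and 57 (0.594%) were past it downwards. The median log2 ratio over these genes was -0.01. Each of these 122 genes had a 95% counting interval that excluded 0, which compares the captured molecules of 2 libraries and not the genotypes. Without the 17 smooth-muscle-high cells, 42 of the 65 and 56 of the 57 were still past the fold, and 54 and 71 of the 9588 genes were past it upwards and downwards. With all members and 0.1 added in place of 1, 814 genes were past it upwards and 1109 downwards.

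**Figure D3:**
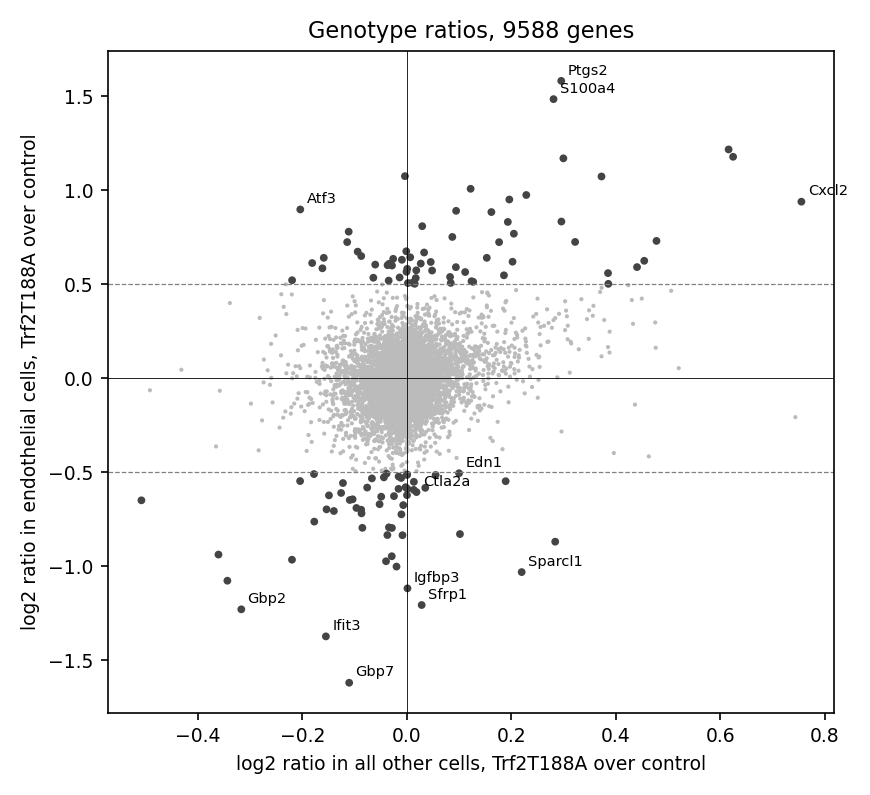
Each point is 1 of 9588 genes, with its log2 ratio of Trf2T188A over control in all other cells on the x axis and in endothelial cells on the y axis. Dark points are the 122 genes past a log2 ratio of 0.5 or -0.5 (dashed lines) in endothelial cells. Gbp7, Ifit3 and Gbp2 lie lowest and Ptgs2 and S100a4 highest.

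Interferon-stimulated genes made up a large part of the genes lower in Trf2T188A members. Of a list of 30 genes, 29 passed the filter and 18 were past the fold downwards, against 0.594% of all genes, with none upwards and a median log2 ratio of -0.63. Gbp7 (chr3:142530342-142550149, plus strand), a guanylate-binding protein of cell-autonomous defence, ranged from 0 to 43.7 over control members and from 0 to 3.88 over Trf2T188A members, with means of 4.39 and 0.75 (log2 ratio -1.62, 95% counting interval -1.84 to -1.40). Its medians over cells, 1.11 and 0.30, were closer than its means, and the ranges overlapped. Gbp2 (chr3:142620602-142638008, plus strand), of the same family, had means of 5.19 and 1.64, medians of 1.64 and 1.20 and highest values of 45.8 and 8.61 (log2 ratio -1.23).

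Ifit3 (chr19:34583531-34588731, plus strand), whose product binds foreign RNA complexes, had means of 2.30 and 0.27 (log2 ratio -1.37) and was read in 20 of 63 and 12 of 68 members (20.7% and 11.9% after thinning). Ifit1, which binds viral RNA caps, had 1.10 and 0.05 (log2 ratio -1.0). Iigp1, an immunity-related GTPase, had 6.79 and 2.69 (log2 ratio -1.08), and the ubiquitin-like Isg15 had 3.34 and 1.22 (log2 ratio -0.97). Mx1 was read in 6 control members and in no Trf2T188A member (5.17% and 0% after thinning). Ifitm3 (24.1 and 23.8), Irf1 (3.73 and 4.57), Ifngr1 (4.46 and 4.23) and Irf9 (0.66 and 0.49) were among the list's genes within the fold. Guanylate-binding proteins and the immunity-related GTPases are families of similar genes, so reads may be split unevenly among them.

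Fewer Trf2T188A members had very high values, and some genes were also lower over most cells. Bst2, tetherin, had quartiles of 3.90 and 11.6 around a median of 7.93 in control members, and of 2.80 and 6.93 around a median of 4.34 in Trf2T188A members. The medians of Iigp1 were 2.88 and 1.24. The sum over the 30 genes, in which Ifitm3 with means of 24.1 and 23.8 is a large part, had a median of 49.1 UMIs per 10000 in control and 49.8 in Trf2T188A members, but means of 81.1 and 49.6. It exceeded 100 in 12 of 63 control members and in 2 of 68 Trf2T188A members. The highest control cells reached 371, 344 and 293, the highest Trf2T188A cells 180, 139 and 83.0, and 6 control cells were above the highest Trf2T188A cell. Without the 3 highest cells of each library, a choice made after the data were seen, the means were 68.3 and 45.7.

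Cells with a sum over 100 were also scarcer among the other cells of the Trf2T188A library, at 30 of 5324 (0.563%) against 78 of 4904 (1.59%). Over the other cells the median log2 ratio of the 29 genes was -0.04, where the 1 added to each mean shrinks the ratios of low genes. Gbp2 had means in other cells of 0.42 in control and 0.14 in Trf2T188A (log2 ratio -0.32). Iigp1 had 0.54 and 0.21 (-0.34), while Ifit1 hardly differed, at 0.18 and 0.17 (-0.02). Without the smooth-muscle-high cells 19 genes of the list were past the fold downwards. Within each library the interferon-stimulated sum went with the class I presentation sum (Spearman rho 0.58 in control and 0.68 in Trf2T188A members), and 1 of the 17 class I genes, Tap1, was past the fold downwards (0.86 and 0.29, log2 ratio -0.53), while H2-K1 (-0.19) and H2-D1 (0.02) were not.

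**Figure D4:**
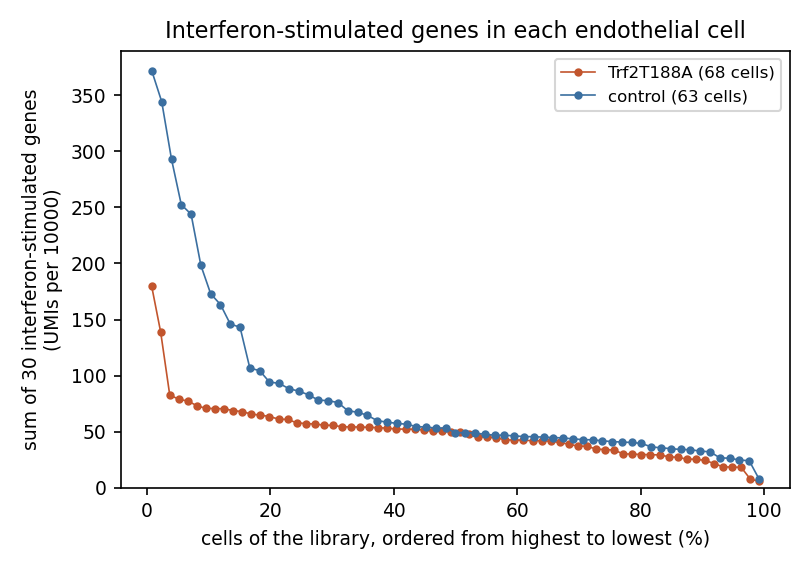
The sum of 30 interferon-stimulated genes in each endothelial cell (y axis, UMIs per 10000), with the cells of each library in order from highest to lowest (x axis, % of the library's cells; blue, 63 control; orange, 68 Trf2T188A). The curves meet near the middle, at medians of 49.1 and 49.8, and part at the left, where 12 control and 2 Trf2T188A cells exceed 100.

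The promoters of these genes were searched for the core of the interferon-stimulated response element, a pair of TTTC runs (or GAAA, read on the other strand) parted by 2 bases of any kind. Among the 250 bases before the start given in the RefSeq table, it was found in 14 of the 23 list genes with an entry in the RefSeq promoter table (GRCm38.p6), in 10 of the 13 with an entry that were past the fold downwards, and in 936 of 27025 genes of the table (3.46%). It was in 18 of 44 genes past the fold downwards and in 0 of 50 past it upwards. A match is a description of the letters and not a site of binding. The stretches below are shown because these genes moved together, with matches in capitals, 5′ to 3′ on the gene's strand. The stretches lie at chr19:34583323-34583466 (plus strand) for Ifit3, chr19:34640735-34640863 (plus) for Ifit1, chr4:156200825-156200946 (minus) for Isg15, chr3:142620554-142620662 (plus) for Gbp2 and chr3:142530233-142530335 (plus) for Gbp7, all before the start in the RefSeq table. For Gbp2 the gene as annotated by GENCODE begins at 142620602, so the later part of its stretch, with the match, lies inside that annotation. In Isg15, 3 overlapping matches run together.
Ifit3: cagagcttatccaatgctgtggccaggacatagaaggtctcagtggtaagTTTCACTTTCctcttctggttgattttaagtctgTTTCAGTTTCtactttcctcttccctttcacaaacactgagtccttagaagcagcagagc
Ifit1: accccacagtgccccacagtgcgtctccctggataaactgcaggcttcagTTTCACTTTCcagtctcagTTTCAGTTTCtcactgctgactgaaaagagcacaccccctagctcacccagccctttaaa
Isg15: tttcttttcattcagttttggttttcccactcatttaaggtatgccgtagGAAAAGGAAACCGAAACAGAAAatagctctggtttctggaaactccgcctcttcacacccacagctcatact
Gbp2: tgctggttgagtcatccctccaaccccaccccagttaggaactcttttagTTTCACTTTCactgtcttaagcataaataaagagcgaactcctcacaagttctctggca
Gbp7: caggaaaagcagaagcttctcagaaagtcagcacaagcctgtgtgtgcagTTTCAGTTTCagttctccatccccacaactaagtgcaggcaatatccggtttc

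Sfrp1, Igfbp3 and Sparcl1 were also among the genes with the lowest ratios in Trf2T188A members. Sfrp1 (chr8:23411502-23449632, plus strand) had medians over cells of 5.09 in control and 1.63 in Trf2T188A members and means of 9.52 and 3.56 (log2 ratio -1.21, interval -1.37 to -1.04), and was read in 52 of 63 and 54 of 68 members (72.4% and 59.7% after thinning). Igfbp3 (chr11:7206086-7213923, minus strand) had means of 4.70 and 1.63 (log2 ratio -1.12) and Sparcl1, a matricellular protein, of 7.67 and 3.24 (log2 ratio -1.03). Igfbp3 UMIs were in 31.7% of control and 22.1% of Trf2T188A members, and in 29.3% and 16.4% after thinning.

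Of 18 basement membrane and matrix genes, 2 were past the fold upwards, Eln and Fn1, which are described with the matrix genes below, and 4 downwards: the collagen IV chains Col4a1 (12.5 and 7.79, log2 ratio -0.62) and Col4a2 (5.65 and 3.67, -0.51), the laminin chain Lamb1 (1.44 and 0.70, -0.52) and Thbs1, thrombospondin (15.2 and 8.94, -0.71). Over all genes 0.678% were past it upwards and 0.594% downwards. Without the smooth-muscle-high cells 1 of the 18 was past it upwards and 6 downwards. In members without an Igfbp3 UMI, Col4a1 had means of 5.95 in control and 5.66 in Trf2T188A, and Col4a2 of 2.86 and 2.60. In members with one, Col4a1 had 26.7 and 15.3, and Col4a2 11.6 and 7.47. Thbs1 went the other way, with 17.3 and 7.74 without one and 10.6 and 13.2 with one. The part of this split in the ratios was not tested. Apln, Esm1 and the fatty acid carrier Fabp4 were also past the fold downwards, at -0.59, -0.58 and -0.83, with Apln read in 7 control and 4 Trf2T188A members (8.62% and 2.99% after thinning). These 3 belong to the capillary and vasa vasorum list, of which 3 of 6 genes that passed the filter were past the fold downwards and none upwards, with a median of -0.50 (-0.51 without the smooth-muscle-high cells). Of the 12 vasoactive genes that passed the filter, 2 were past the fold upwards, among them Ptgs2, and 1, Edn1, downwards (log2 ratio -0.51). The list median was 0.01. Without the smooth-muscle-high cells 1 was past it upwards and 0 downwards, with Edn1 at -0.33. Among chemokines and cytokines, Tnfsf10, the death ligand TRAIL, was lower (2.15 and 0.76, log2 ratio -0.84), as were Cxcl10 (-0.55) and Cxcl12 (-0.52). Of the rule markers, Ctla2a was past the fold, which is a description only, since the members were chosen by these markers, with medians of 12.6 and 2.61 and means of 21.3 and 13.7 (log2 ratio -0.61).

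Ptgs2 and some immediate early and NF-kB feedback genes were among those higher in Trf2T188A members. Ptgs2 (chr1:150100031-150108227, plus strand), the inducible cyclooxygenase, ranged from 0 to 11.3 over control members (median 0.72) and from 0 to 90.8 over Trf2T188A members (median 2.69), with means of 1.82 and 7.45 (log2 ratio 1.58, interval 1.37 to 1.79). Its log2 ratio in the other cells was 0.30. Zfp36, which destabilises cytokine transcripts, had medians of 2.55 and 6.07 and means of 3.56 and 8.18 (log2 ratio 1.01).

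Atf3, a stress-induced factor, had medians of 10.7 and 19.3 and a log2 ratio of 0.90 in members and -0.20 in other cells. Of 16 immediate early genes, Atf3 and Nr4a1 (0.77) were past the fold upwards and none downwards, against 0.678% of all genes upwards, with a list median of 0.30 in members and -0.08 in other cells. Fos (34.0 and 43.6), Jun (22.2 and 28.3) and Egr1 (14.5 and 20.2) stayed within the fold. Without the smooth-muscle-high cells 4 of the 16 were past it upwards, with Egr1 at 0.57 and Junb at 0.58 added. These genes are also known to be induced when cells are freed with enzymes, and differences in handling between the 2 libraries cannot be told apart from genotype.

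Of 14 NF-kB feedback genes 3 were past the fold upwards, against 0.678% of all genes, namely Nfkbia (0.52), Tnfaip3 (0.54) and Zfp36, and none downwards, and 5 were past it upwards without the smooth-muscle-high cells. Sele (log2 ratio 0.64), with a median of 0 over the cells of each library and highest values of 27.5 and 53.9, and Cxcl2 (0.94) were also past it, and Cxcl2 was higher by 0.76 in the other cells too. Vcam1 (0.23) and Icam1 (0.20) were within it. Cdkn1a, the p21 cell cycle inhibitor, had means of 2.84 and 5.34 (log2 ratio 0.72) in members and a log2 ratio of -0.11 in other cells. Gdf15, a stress cytokine, had 0.41 and 1.33 (0.72, and 0.46 without the smooth-muscle-high cells), with a log2 ratio of 0.32 in other cells. The remaining 11 genes of the senescence and telomere list that passed the filter were within the fold. Id1, a target of BMP signalling, had 7.23 and 12.1 (0.67), Klf4, a flow-responsive factor, 6.73 and 10.2 (0.53, and 0.48 without those cells), and Lmo2 was the single gene of the endothelial identity list past the fold (0.51).

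S100a4, a calcium-binding protein of motile cells, was read in 15 of 63 control and 42 of 68 Trf2T188A members (15.5% and 52.2% after thinning), with means of 0.73 and 3.85 (log2 ratio 1.48, and 0.28 in other cells). It stayed at 1.43 without the smooth-muscle-high cells. S100a10, the annexin A2 partner, had 3.70 and 7.23 (0.81). Lum, the proteoglycan lumican, had 0.99 and 3.47 (1.17, and 1.22 without those cells), and Dcn was higher by 0.72 with them and 0.71 without. Vim, the mesenchymal intermediate filament, which is also abundant in endothelium, had 73.5 and 105 (0.51, and 0.48 without them).

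Smooth muscle and fibrillar matrix genes were higher as well, and here the smooth-muscle-high cells moved with the result. Of 11 smooth muscle markers that passed the filter, 6 were past the fold upwards with all members and none without those 17 cells, where 0.678% of all genes were past it with all members. Tpm2, a tropomyosin, had means of 2.18 and 5.70 (log2 ratio 1.07, and 0.13 without them) and Acta2 15.9 and 27.5 (0.75, and -0.18 without). Of 16 genes of the mesenchymal transition list that passed the filter, 9 were past the fold upwards and 1, Sfrp1, downwards with all members (0.678% and 0.594% of all genes). Without those cells 2 were past it upwards, S100a4 (1.43) and Fn1 (0.50), and 2 downwards, Sfrp1 (-1.13) and Tagln (-0.52). Col3a1 went from 1.07 to -0.31, Eln, elastin, from 1.18 to -0.36 and Col1a1 from 0.83 to -0.01. Igfbp2 (0.01 and 1.34, log2 ratio 1.22) fell within the fold at 0.09, and it was read in 1 control and 9 Trf2T188A members (0% and 7.46% after thinning). Transition factors of the list, Snai1 (0.03), Snai2 (0.01), Twist1 (-0.05), Zeb1 (-0.11) and Zeb2 (-0.09), were within the fold with all members. With 1 added to each mean, a low gene can hardly leave the fold, so these values do not show that the factors were unchanged. Of the de-differentiation list the study used for smooth muscle cells, 6 of 8 were past the fold upwards with all members, against 0.678% of all genes, and 3 without those cells. That list is not independent evidence of a direction here, since the study applied it to these same libraries.

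**Figure D5:**
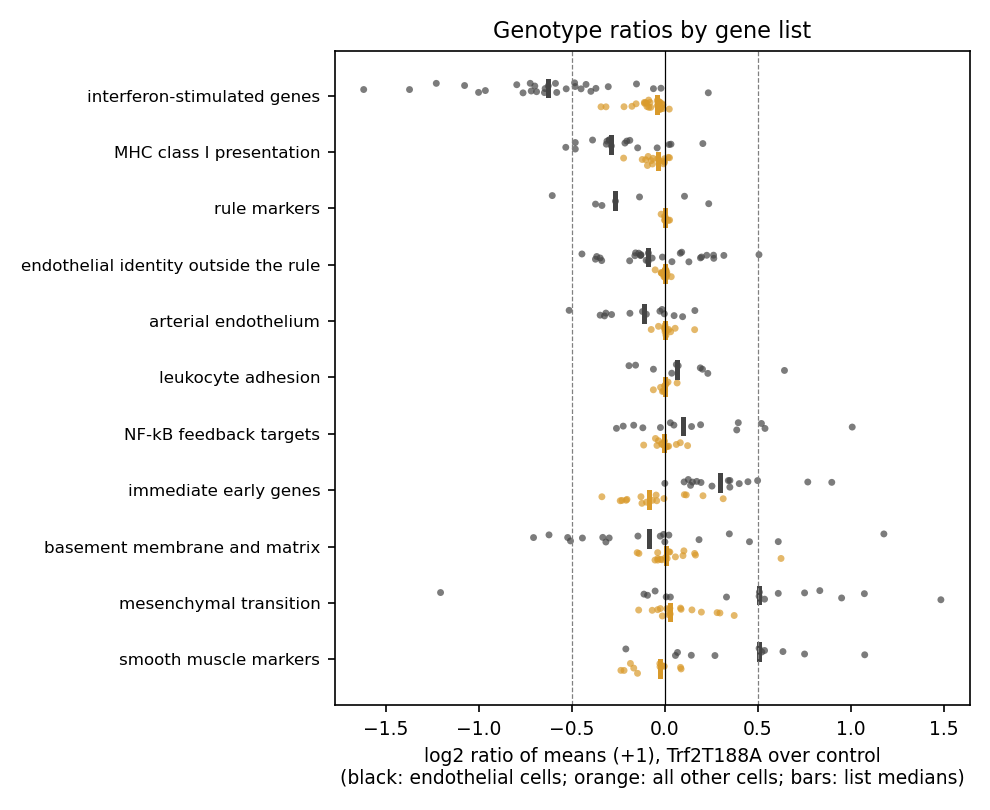
Log2 ratios of Trf2T188A over control for the genes of 11 lists, 1 point per gene that passed the filter (black, endothelial cells; orange, all other cells; bars, list medians; dashed lines, 0.5 and -0.5). Interferon-stimulated genes have a median of -0.63 in endothelial cells, immediate early genes 0.30 and smooth muscle markers 0.51, the last -0.05 over the same 11 genes when smooth-muscle-high cells are left out.

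The identity and arterial lists each had 1 gene past the fold between genotypes, and the Notch list had none. Over all genes 0.678% were past it upwards and 0.594% downwards. Of the 28 identity genes, 1 was past the fold upwards and none downwards, with a list median of -0.09. The Notch list of 10 genes that passed the filter had none past the fold, with Notch1 at 1.90 and 2.70 (0.35). Of 14 arterial genes Cxcl12 was past it downwards. Apoe (-0.28), Bmp4 (-0.22), Pdgfb (0.17) and Nos3 (0.13) were within the fold, and so were all 6 class II genes that passed the filter (median -0.27). Of the cell cycle list, 6 of 16 genes passed the filter and none was past the fold.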

How the data were processed

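Single cells of 2 ligated carotid libraries were analysed, with 2 plaque libraries used only for cell totals, Terf2 and cells meeting the rule. The authors deposited 1 table per library, made per the labels' processing notes with Cell Ranger 6.1.2 and Seurat 3.2.1 on GRCm38, after removing cells with under 1200 genes, over 6% mitochondrial reads or over 40% of reads in the most expressed genes. The deposited values are a linear signal of UMIs per 10000 per cell, from which whole UMIs were recovered (100% of values within 0.01 of a whole count). Total UMIs were 47713453 in control and 67426588 in Trf2T188A. The lowest number of genes in a ligation cell was 1203. No doublet caller was run, and the alternatives left out the deepest 5% of cells, members with immune markers and smooth-muscle-high members.

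Means of UMIs per 10000 were compared as log2 ratios after adding 1, with 95% delta-method intervals from Poisson counts. These intervals leave out the spread between cells of a library. They were run on simulated counts that were Poisson by construction, which cannot show how they behave with that spread. Software was SciPy 1.17.1 and pandas 2.3.3 under Python 3.11.15, with figures from matplotlib 3.10.9. Named genes were the rule markers, list genes, the 10 highest over other cells and the 8 highest and 8 lowest between genotypes. Gene coordinates are from GENCODE on GRCm38. The members and gene lists were chosen with earlier results of these data known. A few single genes are not reported here. Other alternatives were marker minimums of 3 and 5, thinning to 5000 UMIs, other pseudocounts, scales, filters and folds.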

Additional observations from a re-analysis of the deposited data

Results flagged for a closer look

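Atf3, Sparcl1, Ecrg4 and Lmod1 had log2 ratios of Trf2T188A over control of opposite sign in endothelial cells and in all other cells, with both counting intervals excluding 0, and the difference was not tested because each genotype has 1 library. Atf3 was 0.90 in endothelial cells and -0.20 in other cells. Sparcl1 was -1.03 and 0.22. Ecrg4, which encodes the secreted protein augurin, was -0.87 and 0.28. Lmod1, a smooth muscle leiomodin, was 0.52 and -0.22, and 0.06 in endothelial cells when the smooth-muscle-high cells were left out.

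In the plaque libraries, which the comparisons above do not use, 2 cells of the ApoE library and 3 of the Trf2T188A ApoE library held at least 4 of the 7 markers (0.133% of 1502 and 0.323% of 929 cells). Their summed marker levels were 1.71 and 6.47 in the first and 12.0, 39.6 and 20.9 in the second. The study had kept only clusters expressing the Confetti reporter of smooth muscle lineage, so these shares cannot be set beside those of the ligation libraries. The cells with sums of 1.71 and 12.0 held 105378 and 95609 UMIs, against library medians of 22765.5 and 24377. The cell with 6.47 had a smooth muscle marker sum of 181.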

How the results depend on the processing

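No paired analysis was possible because each genotype has 1 library, and for the same reason no library could be left out. The shares of endothelial cells stayed within their intervals under every alternative that gave one. With a pseudocount of 0.1 in place of 1, 947 genes were higher and 565 lower than in other cells (202 and 203), and 814 were higher and 1109 lower in Trf2T188A (65 and 57). At a log2 ratio of 0.25, 324 were higher and 424 lower. With ratios of summed UMIs, 36 genes were lower, 10 of them interferon-stimulated (57 and 18). With differences of mean log2 values, 15 were lower, 6 of them interferon-stimulated, and 2 mesenchymal, 1 smooth muscle and 2 de-differentiation genes were higher (9, 6 and 6), with Acta2 at -0.0383 and Tagln at -0.00345. Thinning to 5000 UMIs left 3 smooth muscle genes higher. Without the smooth-muscle-high cells, an alternative added after the data were seen, 2 mesenchymal, 0 smooth muscle and 3 de-differentiation genes were higher. The list medians, with the filter applied anew, were then -0.033 (mesenchymal) and -0.101 (smooth muscle), and single genes reversed: Acta2 -0.184, Cnn1 -0.033, Col1a1 -0.00638, Col1a2 -0.121, Col3a1 -0.307, Eln -0.358 and Tagln -0.521. Causes were not tested beyond the construction of each alternative. Fewer than 100 cells per library limit all values of low genes.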
